A study of Mus musculus with 6 samples.

Results

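This is an account of the coding variants that were called at low read fraction in the bone marrow of Srsf2 mutant mice and were not called in the ear of the same animal. A site was included when its annotation had an impact of LOW, MODERATE or HIGH, when the same position and alleles were missing from the ear list of that animal, and when under 20% of the reads carried the variant. This choice was made within each animal, and the 3 sets were then pooled. It left 1261 sites of the 19813 coding sites and 149620 sites in all in the 3 marrow lists. Animal 54 had 482 of them, animal 108 had 412 and animal 136 had 367, a mean of 420.3 ± 58.0 (SD, n = 3 animals).

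Exome capture sequencing had been done on genomic DNA of whole bone marrow (3 samples) and of ear (3 samples). Animals 54 and 108 were male and animal 136 was female, all C57BL/6, treated with tamoxifen in vivo and sampled 50 to 60 weeks later because they were moribund. The labels give every sample, ear and marrow alike, the genotype R26CreERT2 Srsf2 P95H, in which tamoxifen switches on a Cre recombinase expressed from the Rosa26 locus, while the design text gives 1 of the 3 animals hScl-CreERT with R26eYFP in its place, without saying which. No animal without the mutation was analysed here, so nothing below separates the effect of the mutation from that of age, strain or treatment. Whole marrow is a mixture of blood cell types, and the ear also holds blood.

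Srsf2 encodes a splicing factor of the SR family, and changes at its proline 95 recur in human myeloid neoplasms. A blood stem cell that acquires a mutation passes it to its descendants, so the share of reads carrying it depends on how large that clone has become. A change carried by a small clone is therefore read at a low fraction, where it shares its range with errors of copying, sequencing and alignment. The annotation grades HIGH, MODERATE and LOW stand for changes that truncate a protein or break a splice site, that alter an amino acid, and that are synonymous or near a splice site.

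The engineered change itself was in all 6 lists as a pair of neighbouring bases in codon 95 (chromosome 11, 116852645 and 116852646, exon sequence of Srsf2), which the annotation named one at a time as P95P and P95Q. At the second base it was carried by 23 of 48 marrow reads in animal 54, 11 of 57 in animal 108 and 27 of 55 in animal 136. The ears had 34 of 81, 25 of 62 and 28 of 45 reads. The marrow of animal 108 was lowest at 19.3% (95% Clopper-Pearson interval 10.05 to 31.9%), below the 20% limit. The site is not among the 1261 because the ear list held it too. All variant reads at this second base were forward in both tissues of animals 108 and 136. In animal 54, 22 were forward and 1 reverse in marrow, and 32 forward and 2 reverse in ear.

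Few of the 1261 sites could be set in their sequence, because only promoter windows were at hand. Shown first are 3 sites inside such a window that change an amino acid and have variant reads on both strands, as examples of the C to T and C to A changes that lead the set. Deletions in repeats, which make up most of the insertions and deletions, and the insertion in Tal1 follow. Each sequence is the forward strand of GRCm38.p6, 5′ to 3′, from RefSeq, and the capital marks the changed base, first as in the reference and then as in the variant reads. Dmrtb1 encodes a DM-domain transcription factor, Ska3 a kinetochore subunit and Lrp5 a co-receptor of Wnt signalling. All 3 come from animal 54, and the variant reads were split evenly between strands in each.
Dmrtb1 A151T, chr4:107683700-107683724, 6 of 62 reads, reference: ggggcagccacgCggaggaacggtc
Dmrtb1 A151T, variant: ggggcagccacgTggaggaacggtc
Ska3 G31V, chr14:57826009-57826033, 2 of 16 reads, reference: ccgctgtcctcgCcgtccagcgctc
Ska3 G31V, variant: ccgctgtcctcgAcgtccagcgctc
Lrp5 L25F, chr19:3686356-3686380, 2 of 13 reads, reference: cgcggcggggacCaagctgcagtac
Lrp5 L25F, variant: cgcggcggggacAaagctgcagtac

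In the following alleles, as the deposited lists write them, the capitals are the bases deleted or inserted. Kcnn3 encodes a potassium channel, Rnf168 a ubiquitin ligase of the DNA damage response, and Tal1 a transcription factor that blood formation depends on. The first 3 deletions removed 1 unit of a trinucleotide repeat. The Tal1 insertion of 10 bases, as written, was not made of a repeated short unit, and the bases around it were not examined.
Kcnn3 Gln80del, animal 108, chr3:89520689-89520708, 3 of 16 reads, reference: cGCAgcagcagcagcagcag
Kcnn3 variant: cgcagcagcagcagcag
Sgol2 Asp166del, animal 54, chr1:58013526-58013541, 3 of 16 reads, reference: aATGatgatgatgatg
Sgol2 variant: aatgatgatgatg
Rnf168 Glu159del, animal 136, chr16:32285444-32285462, 4 of 38 reads, reference: tGAGgaggaggaggaggag
Rnf168 variant: tgaggaggaggaggag
Tal1 Tyr174 frameshift, animal 108, chr4:115064742-115064743, 21 of 111 reads, variant: tAATCAAGCTAa

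The sites were chosen by their annotated impact, their absence from ear and their read fraction, so fraction and depth are given as a description, with no test. The median fraction stood at 14.3% (animal 54), 15.4% (animal 108) and 15% (animal 136), over a range of 3.57 to 19.9%. The median depth was 23 reads (quartiles 15 and 37, range 11 to 7303), against medians of 80, 94 and 68 reads over all coding sites of the marrow lists of animals 54, 108 and 136. The median site thus rested on 3 variant reads. Exactly 2 variant reads carried 425 of the 1261 sites, 316 had at least 5 and 47 had at least 20. With so few reads a single fraction is loosely known. Intervals on fractions reflect counting error alone. PCR copies of a fragment can be counted more than once, and the processing notes do not say whether they were marked.

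**Figure D1:**
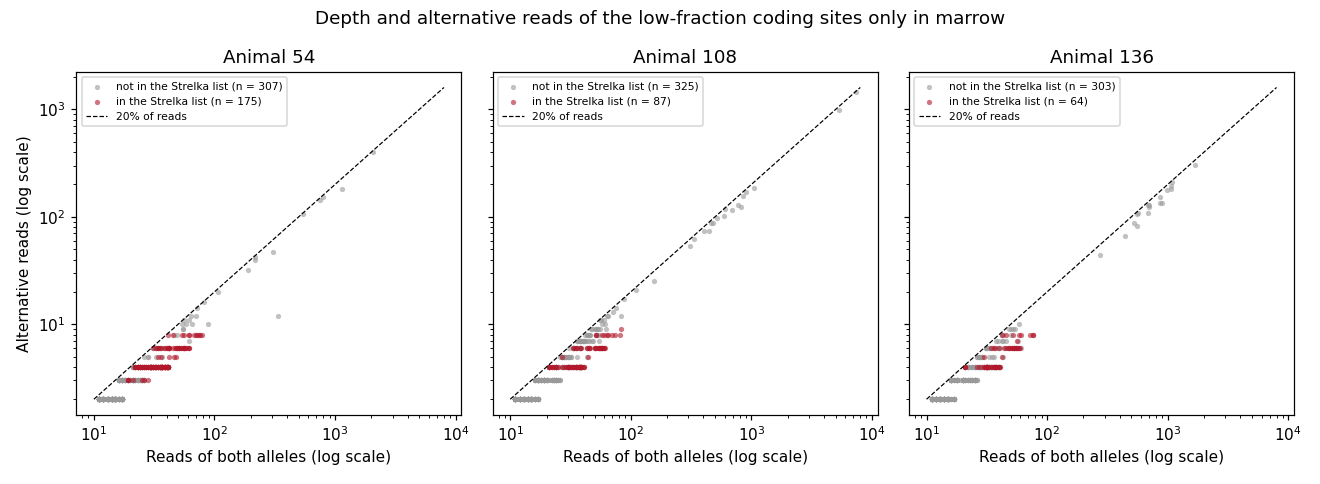
Reads with the variant against reads of both alleles (both axes log scale) at each of the 1261 sites, 1 panel per animal, with sites of the Strelka list in red, the others in grey and the 20% limit as a dashed line. Most points lie close below that line at the left, where the median is 3 variant reads of 23, and no red point rests on 2 variant reads.

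The limit of 20% cut through a continuous range. Just inside it lay Sfi1 R145W in animal 108 with 1455 of 7303 reads (19.9%), in a spindle pole protein gene, and A409A of the ankyrin repeat gene Ankrd35 in animal 54 with 14 of 71 reads (19.7%). Sfi1 R145W was also in the ear lists and the marrow lists of the other 2 animals. Just outside it, at exactly 20%, were 92 sites, among them Ugt1a10 with 43 of 215 reads and Mapk7 with 27 of 135. The range of 20 to under 25%, with those 92 included, held 433 coding sites found only in marrow. The lowest fractions were those of Gm13150 D17D (12 of 336 reads, 3.57%, at a mapping quality of 4 where the median was 42) and of Dmrtb1 A151T and Hydin C2871C (6 of 62 reads each, 9.68%), and 18 sites in all lay below 10%.

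The same rule applied to ear, with marrow as the tissue to be absent from, gave 379, 533 and 569 sites for animals 54, 108 and 136. Marrow had more such sites in animal 54 and fewer in the other animals. On the log2 scale marrow minus ear averaged -0.22 ± 0.51 (0.859-fold, exact two-sided sign-flip p = 0.5, adjusted p = 0.8), and it was -0.50 without animal 54 and -0.01 without animal 136. Median depth at coding sites also differed, at 114, 92 and 45 reads in the ears against 80, 94 and 68 in the marrows of animals 54, 108 and 136, and its part was not tested.

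Most of the sites altered a protein. There were 638 missense sites (50.6%), 253 synonymous, 206 in splice regions, 50 that gained a start codon ahead of the coding sequence, 43 stop gained, 29 splice acceptor, 13 splice donor, 16 in-frame indels, 5 frameshifts, 5 stop lost, 2 start lost and 1 stop retained. By grade, 97 were HIGH, 654 MODERATE and 510 LOW. The ratio of protein-altering to synonymous sites was 305 to 110 in animal 54, 221 to 72 in animal 108 and 225 to 71 in animal 136, a mean of 3.004 ± 0.206 (SD, n = 3).

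That ratio was compared with the ratio among coding sites called in both tissues, which are mostly inherited differences from the reference. Those had 0.712, 0.590 and 0.796 in animals 54, 108 and 136. The sites found only in marrow at low fraction were above them in every animal, by 2.11 ± 0.23 on the log2 scale (4.32-fold), with no overlap between the sets. The exact two-sided sign-flip permutation test gave p = 0.25, the smallest that 3 animals allow (adjusted p = 0.444 over 16 paired comparisons). The mirror set, low-fraction coding sites found only in ear, had 2.47, 2.62 and 3.04, which is 0.15 ± 0.09 lower on the log2 scale in 3 of 3 animals (1.11-fold; p = 0.25 in the same exact test, adjusted p = 0.444), though the difference became -0.0520 with at least 5 variant reads. Coding sites only in marrow at 20% or above lay between, at 2.45, 1.89 and 1.85.

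**Figure D2:**
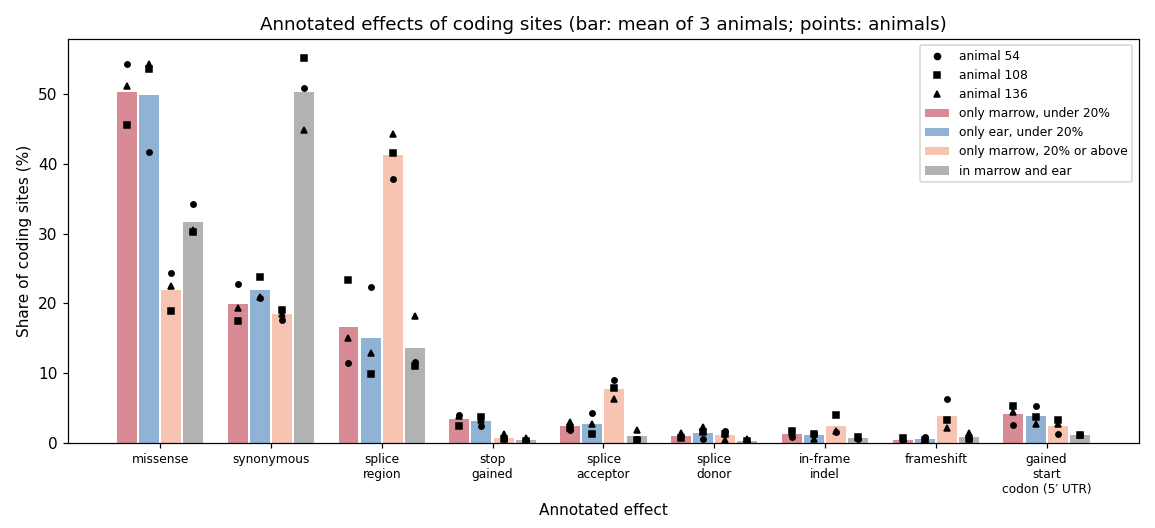
Share of coding sites by annotated effect, in percent, for the low-fraction marrow-only sites and the comparison sets (bars are means of 3 animals, points are animals). Missense sites lead the low-fraction marrow-only sites (50.6% of all 1261), and splice region sites are fewer there (16.3%) than among marrow-only sites at 20% or above (41.5%).

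Stop gained changes made up 3.41% of the low-fraction marrow sites, 3.24% of the low-fraction ear-only sites and 0.296% of the sites in both tissues. Of the 43, 25 arose by a C to A change and 14 by C to T, counting both strands together. Codons for glutamate were lost in 15, glutamine in 9, arginine in 6 and serine in 5. The most variant reads were those of R448* of Mroh2a in animal 108, with 73 of 408 reads (17.9%), in a gene with many such sites. R448* was also in the ear lists and the marrow lists of the other 2 animals. E6* of Neurl2, an adaptor of a ubiquitin ligase, in animal 54 had 8 of 72 reads (11.1%, 4 on each strand) and was in Strelka.

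Among the other HIGH sites, the Tal1 insertion in animal 108 (chromosome 4, 115064742, exon 4 of 5) had 21 of 111 reads, or 18.9% (95% Clopper-Pearson interval 12.1 to 27.5%). Only 1 of those 21 reads was on the forward strand, whereas the reference reads were split 37 forward and 53 reverse. It was not in the Strelka list and in no list of another animal. A splice acceptor of Dnm3, a dynamin, was changed in 8 of 51 reads in animal 108, 4 on each strand. In animal 54 a stop codon of Phykpl, an enzyme gene, was lost through neighbouring bases at 10 of 54 and 9 of 55 reads. Splice sites of Cebpz (9 of 52 reads, animal 136), Smoc2 (7 of 38, animal 108) and Ugdh (7 of 43, animal 136) had every variant read on 1 strand.

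The base changes of the 1213 single-base sites were led by C to T (37.3%) and C to A (34.9%), each counted together with its complement. T to C made up 14.8%, T to A 7.42%, T to G 3.54% and C to G 2.06%. For C to A the share was 38.1, 32.9 and 32.8% in animals 54, 108 and 136. In coding sites of both tissues it was 7.99, 7.69 and 11.3%, so all 3 animals lay above, by 25.6 ± 4.35 percentage points (exact sign-flip p = 0.25, adjusted p = 0.444), and by 11.5 points with the limit at 10%. The T to C share went the other way, with a difference of -19.5 ± 7.08 points, below in 3 of 3 animals (exact p = 0.25, adjusted p = 0.444), and that of C to T differed by 0.94 ± 3.46 points, with animal 54 below 0 (exact p = 0.75, adjusted p = 0.923).

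The sites in both tissues that were under 20% in marrow, 179 in all, are nearer in read fraction. Their C to A shares were 17.6, 20 and 24.1%, and their protein-altering to synonymous ratios 1.19, 1.72 and 2.2, in both cases between the low-fraction marrow-only sites and all sites of both tissues in each animal. This difference was not tested.

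Coding sites only in marrow at 20% or above had C to A shares of 21.5, 19.8 and 22.7%, below the low-fraction sites in each animal by 13.2 ± 3.26 points (exact p = 0.25, adjusted p = 0.444). With the limit set at 10%, which leaves 18 sites, this difference became -0.90 points. Low-fraction sites only in ear had 25.8, 38.6 and 30%, which the marrow sites exceeded in animals 54 and 136 and not in animal 108 (mean difference 3.16 ± 9.02 points, exact p = 0.75, adjusted p = 0.923). Without animal 54 that mean was -1.44 points and without animal 108 it was 7.57. The marrow and ear sets thus overlapped in this share. Against ear, C to T differed by 1.37 ± 9.45 points and T to C by -1.38 ± 4.41 points (exact p = 1, adjusted p = 1 for both). Without animal 108 these were -3.91 and 1.14 points.

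**Figure D3:**
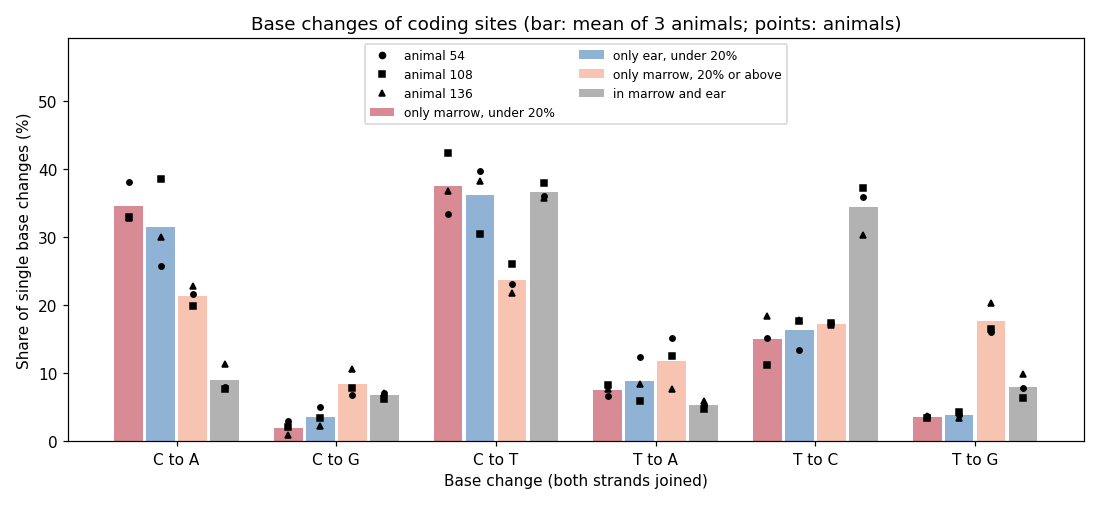
Percent of single-base sites in each base change class, complements joined (bars are means of 3 animals, points are animals). The C to A points of the low-fraction marrow-only sites (32.8 to 38.1%) and of the low-fraction ear-only sites (25.8 to 38.6%) overlap and lie above those of sites in both tissues (7.69 to 11.3%).

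C to A changes were not written equally on the 2 genome strands. They read as C to A on the forward strand, and not as the complement G to T, at 279 of 423 sites (66.0%). The share was 66.3, 69.8 and 61.2% in animals 54, 108 and 136. In sites of both tissues it was 47.2, 52.0 and 49.2%, lower in each animal by 16.3 ± 3.80 points (exact sign-flip p = 0.25, adjusted p = 0.444). The low-fraction ear-only sites had 73.4, 59.3 and 67.9%, a mean difference of -1.10 ± 10.02 points (exact p = 1, adjusted p = 1), which was -6.88 without animal 108 and 1.91 without animal 54. C to T changes leaned to the reverse strand, with 41.0, 42.2 and 42.3% on the forward strand, a difference from the sites of both tissues of -7.94 ± 1.28 points, below in 3 of 3 animals (exact p = 0.25, adjusted p = 0.444). Relative to the gene, C to A lay on the coding strand at 41.6, 50.4 and 44.8% of sites.

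**Figure D4:**
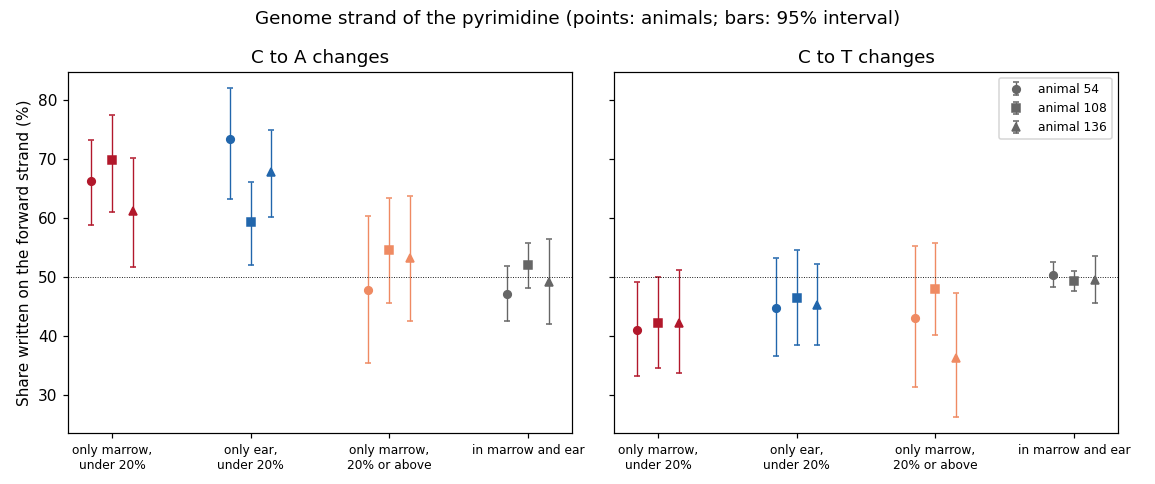
Percent of C to A (left) and of C to T changes (right) that read as such on the forward strand of the genome, by set, with 1 point per animal and 95% Clopper-Pearson intervals. C to A of the low-fraction marrow-only sites lies at 61.2 to 69.8% and C to T at 41.0 to 42.3%, on opposite sides of the dotted line of an even split.

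Variant reads came in equal numbers from the forward and the reverse strand far more often than at other sites. Among the 1091 single-base sites with 2 to 7 variant reads, 530 (48.6%) had as many forward as reverse reads, and 832 had an even number of variant reads. By animal the equal share was 57.0, 42.0 and 44.1%. It was 3.18, 3.61 and 3.39% in sites of both tissues with the same numbers of variant reads, a difference of 44.3 ± 8.35 points, and 13.97, 2.23 and 7.51% in marrow-only sites at 20% or above, a difference of 39.8 ± 3.26 points. Each was in 3 of 3 animals (exact sign-flip p = 0.25, adjusted p = 0.444 for both). Low-fraction ear-only sites had 29.0, 53.7 and 42.9%, so that the difference of 5.83 ± 20.3 points was within the spread of animals (exact p = 0.75, adjusted p = 0.923), -5.28 without animal 54 and 14.6 without animal 108.

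The pattern differed by read number. Of 415 sites with 2 variant reads, 197 had 1 on each strand and 218 had both on the same strand. Of 306 sites with 4 variant reads, 249 had 2 on each strand, and of 111 sites with 6 reads, 84 had 3 on each. Sites with 4 reads outnumbered the 193 with 3 and the 43 with 5. At odd numbers, where an equal split cannot occur, 175 of the 193 sites with 3 reads had all of them on 1 strand. In depth the equal split was also present: of 45 such sites covered by at least 50 reads, 42 were equal. Forward and reverse reads of 1 DNA fragment can overlap in paired-end sequencing, and the labels and headers do not say whether the deposited counts hold both reads of a pair. Its part in the equal split was not tested.

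**Figure D5:**
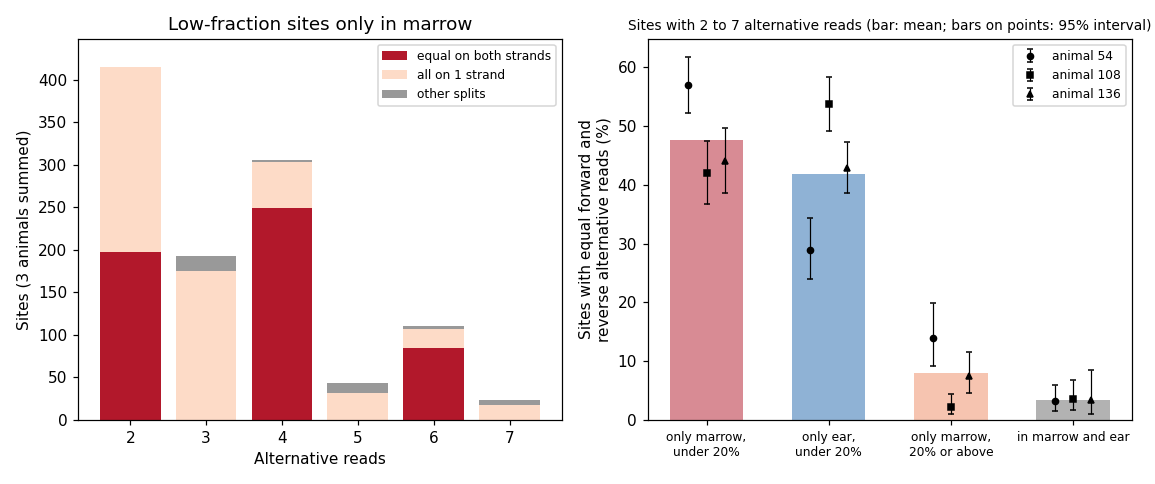
Left, number of single-base low-fraction marrow-only sites by number of variant reads, 2 to 7, divided by how those reads fell on the 2 strands; right, percent of sites with equal forward and reverse variant reads in each set (bars are means, points are animals with 95% Clopper-Pearson intervals). At 4 reads 249 of 306 sites are equal and at 6 reads 84 of 111, and the marrow and ear low-fraction sets lie above both others.

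Reads of the variant on 1 strand and of the reference on the other were tested with Fisher's exact test at each site, adjusted over all coding sites of each marrow list. Of the 1261 sites 29 were called at an adjusted p below 0.05 (2.30%), against 4.09% of all coding sites in the 3 marrow lists. Of the 179 sites of both tissues at low fraction in marrow, with a median of 8 variant reads, 10.1% were called. By animal 7, 13 and 9 of the 1261 sites were called, or 1.45, 3.16 and 2.45% in animals 54, 108 and 136. Of all coding sites 3.62, 2.64 and 11.0% were called, so the share was lower in animals 54 and 136 and higher in animal 108. Few variant reads limit this test, since only 316 of the 1261 sites had at least 5, so a low count of calls is no sign of balance. The 29 called sites included 12 of the 43 T to G changes and 2 of the 423 C to A changes. Of the 18 called sites with an annotated amino acid, 13 read as proline in the variant, as did 63 of the 934 low-fraction marrow-only sites with an annotated amino acid.

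The steepest were Lmtk3 P1414P in animal 54, with 12 forward and 0 reverse variant reads against 1 and 51 reference reads (Fisher's exact test, adjusted p = 1.17e-09), and Scrib H947P in animal 108, with 0 and 12 against 50 and 1 (Fisher's exact test, adjusted p = 1.30e-09). Lmtk3 encodes a kinase, and Scrib a scaffold of cell polarity. Cdcp1 T772P in animal 108 followed, with 0 and 10 against 46 and 5 (Fisher's exact test, adjusted p = 4.67e-06). The Tal1 insertion did not pass (Fisher's exact test, p = 0.00156, adjusted p = 0.0571).

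The authors' Strelka lists, which compare marrow with ear in each animal, held 326 of the 1261 sites (25.9%). Animal 54 had 175 of them (36.3% of its sites), animal 108 had 87 (21.1%) and animal 136 had 64 (17.4%). None rested on exactly 2 variant reads, none was an indel, and their median depth was 37 reads against 17 for the other sites. C to A made up 40.8% of the single-base sites in Strelka and 32.7% of the others, and the ratio of protein-altering to synonymous sites was 3.03 and 2.94. Of those with 2 to 7 variant reads, 275 of 296 were equal between strands, against 255 of 795 of the others. Both the Strelka lists and these sites require a difference from ear, so the overlap is a description.

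The Strelka sites with the most variant reads were spread over unrelated genes. Nos1 F902S in animal 108, in neuronal nitric oxide synthase, had 9 of 83 reads (10.8%). In animal 54, Cd96 G554W, in a receptor of T and NK cells, had 8 of 45 reads and the highest quality of these at 54, and Slc26a4 G221V, in an anion exchanger, had 8 of 56. Ccnl2 A433V, in a cyclin, had 8 of 42 reads in animal 136, and Cetn3 G79D, in a centrin, had 8 of 52. Of the 10 with the most reads, Nos1 had 4 forward and 5 reverse variant reads, Cd96 had 2 and 6, and each of the other 8 had 4 and 4.

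The authors' VarScan2 lists held 4 of the sites, a mean of 0.310% over animals, against 0.352% of coding sites in both tissues. Their deposited table gives Kif21b H28Q, in a kinesin of animal 54, 4 variant and 16 reference reads in marrow and 0 and 25 in ear (deposited somatic p-value 0.0325). For Bub1b S325L, in a spindle checkpoint kinase of the same animal, the authors' deposited table gives 4 and 14 in marrow and 0 and 26 in ear (p-value 0.0225). A splice region of Pcyt1a in animal 108 had 7 and 28 reads in marrow and 1 and 32 in ear in that deposited table. Gm25704 in animal 136 had 6 and 24, and 0 and 19. All 4 had every variant read on 1 strand in the marrow list and none was in Strelka.

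Of the 1261 sites, 35 were in the gene lists given by symbol, and 22 of these altered the protein. The myeloid neoplasm list of 41 genes had 3 sites (0.238%, against 0.177% of all coding sites in the marrow lists and 0.473% of the low-fraction ear-only sites). They were Braf P455L, in a kinase of the MAPK pathway (3 of 20 reads, animal 54), Ppm1d G59E, in a phosphatase that restrains p53 (2 of 12, animal 136), and Stag2 R137*, in a cohesin subunit (2 of 15, animal 136). None of the 3 was in Strelka. The list of 32 DNA repair genes had none of the 1261 sites, which allows a share of up to 0.238%, above the 0.187% of all coding sites and the 0.203% of the low-fraction ear-only sites, so a difference was not detectable.

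The cohesin list, whose products hold sister chromatids together, had 4 sites of 1261 (0.317%), against 8 of all 19813 coding sites (0.0404%) and 4 of the 1481 low-fraction ear-only sites (0.270%). Smc3 Q724K, in a core subunit, had 4 of 32 reads in animal 136 and was in Strelka. Smc1a D471Y, in its partner, had 2 of 16 reads in animal 54, and a splice region of the loader Nipbl had 3 of 16 in animal 108. Stag2, Smc1a and Nipbl, and the splicing genes Rbm25 and Prpf8, fell outside the rule for named sites and were chosen after their values were seen.

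Among chromatin regulators there were 7 sites (0.555%, against 0.535% of all coding sites and 0.945% of the low-fraction ear-only sites). Atrx, a chromatin remodeller, had Q2444K at 6 of 34 reads in animal 108, in Strelka and 3 on each strand, and G2001R at 2 of 11 in animal 54. The demethylases Kdm5a (K805N, 3 of 16) and Kdm5c (L891M, 2 of 14), the methyltransferase Setd2 (E1935A, 2 of 13) and indels of Kmt2d (7 of 55) and Crebbp (2 of 12) made up the rest. Splicing genes had 3 sites (0.238%, against 0.126% of all coding sites and none of the 1481 low-fraction ear-only sites): Srsf9 R16H (3 of 18, animal 136), Rbm25 A265A (3 of 28, animal 54, in Strelka) and a splice region of Prpf8 (8 of 52, animal 108). Blood transcription factors had 2 sites, Tal1 and Mecom E461D (2 of 13, animal 54), or 0.159% against 0.0707% of all coding sites and 0.0675% of the low-fraction ear-only sites.

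Large gene families were counted by name. Olfactory receptor genes held 3 of the 1261 (0.238%), against 2.94% of all coding sites in the marrow lists and 0.338% of the low-fraction ear-only sites. The giant genes, such as Ubr4, Csmd3 and the ryanodine receptors, held 17 (1.35%, against 4.88 and 0.878%), 7 of them in Strelka. Ubr4 A3146S had 8 of 76 reads in animal 136 and Csmd3 S1428F had 6 of 43 in animal 108. Zinc finger genes held 2.30%, against 2.55 and 2.63%.

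The sites were spread over the genome. The fullest chromosome held 9.75% of the sites in animal 54 (X), 8.50% in animal 108 (2) and 10.6% in animal 136 (1). Coding sites of both tissues were more bunched, with 16.8% on chromosome 12, 18.4% on chromosome 14 and 48.3% on chromosome 11 in the same animals. Within 100 bases of another of the sites of the same animal lay 34, 21 and 13 sites.

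A few genes held several. Mroh2a, a gene of HEAT repeats on chromosome 1 (88228380 to 88260003), had 27 sites, 2, 13 and 12 in animals 54, 108 and 136, at a median depth of 607 reads. Of these 19 were in a list of another animal and none was in Strelka. Mroh2a also held 23 low-fraction ear-only sites and 314 of the 19813 coding sites of the marrow lists. The Abca13 sites were of another kind. This gene of a large ABC transporter (chromosome 11) had 5 sites, all in animal 54, all in Strelka and all equal between strands: H332N with 4 of 39 reads, V338V with 4 of 34, S1518P with 8 of 79, and C4022Y and A4027T with 4 of 37 each. Abca13 also had 2 low-fraction ear-only sites. At Fuca1, a lysosomal fucosidase gene, 3 neighbouring bases were changed in animal 54, with 3 forward variant reads each. The first was annotated as start lost and the next ones as L2V and L2R.

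The 1261 sites were 1249 different ones, of which 12 met the rule in 2 animals and 0 in 3. Of the 12, Mroh2a held 3 and the neighbouring Hjurp, a chaperone of centromeric histone, held 1 (G198V, with 130 of 780 reads in animal 108 and 109 of 688 in animal 136). Mroh2a A78E had 119 of 607 and 107 of 558 reads, and was also in the marrow and ear lists of the remaining animal. A splice acceptor of the potassium channel gene Kcnh2 had 7 of 36 and 4 of 29 reads in animals 108 and 136. All of those variant reads were on the reverse strand, and the site was also in the ear list of the remaining animal. At gene level 65 of 1103 genes had sites in 2 animals and 4 in all 3, which were Asah2, Mroh2a, Ralgapa2 and Tmprss15. The same counts of sites and genes were not made for all coding sites or for the low-fraction ear-only sites. Whether such recurrence is unusual therefore cannot be told.

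Some sites were in the ear or marrow list of another animal, 133 in all (23, 56 and 54), a count not made for the other sets. These differed from the remaining 1128. Their C to A share was 17.8% against 36.7%, their median depth 36 against 22 reads, and of the 70 with 2 to 7 variant reads 1 was equal between strands. None was in Strelka, where 326 of the others were. Of all 1261 sites, 11 had their position in the ear list of the same animal with other alleles (3, 8 and 0 in animals 54, 108 and 136).

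Insertions and deletions numbered 48 (15, 20 and 13 in the 3 animals), of which 42 were deletions. Of the deletions 22 removed units of a dinucleotide repeat and 14 of a trinucleotide repeat, as in the Kcnn3, Sgol2 and Rnf168 alleles shown above. By effect 25 lay in splice regions, 16 were in frame, 5 shifted the frame and 2 changed a splice donor.

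The lists also hold the authors' deposited p-values for a difference between variant and reference reads in distance from the read end. After Benjamini-Hochberg adjustment over each list, 24, 18 and 20 of the low-fraction marrow-only sites passed in animals 54, 108 and 136. These were 4.98, 4.37 and 5.45% of the sites, against 1.13, 0.903 and 2.41% of all coding sites, and 4.99, 3.70 and 3.76% of marrow-only sites at 20% or above. For the authors' deposited base quality p-values, 11, 29 and 17 passed, or 2.28, 7.04 and 4.63%, against 2.92, 4.35 and 11.2% of all coding sites and 17.1, 22.1 and 28.3% of marrow-only sites at 20% or above. The part of either in the results above was not tested.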

How the data were processed

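Per the file headers, the authors' lists of all variants hold SAMtools calls annotated with SnpEff, with the deposited read count of each allele on each strand. The submitters' processing notes list Bowtie2 beside FastQC and SAMtools, and both GRCm38 and mm9, with no step attached. Coordinates were taken as GRCm38, since 98.9% of 1234 sites with a RefSeq gene lay inside its span and 40 of 40 sites in RefSeq promoter windows had the reference base. The authors' VarScan2 lists give deposited read counts and a somatic p-value, and their Strelka lists a quality. Their columns for tumour and normal were read as marrow and ear, and no filter settings of either caller were at hand. The lowest total depth listed was 11 reads and the stated mean depth 100. Reads of both alleles, the depth used here, went lower at sites of both tissues, where the lowest averaged 2.67 over animals. A list gives no depth where nothing was called, so absence from ear is not a count of 0 reads.

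Each site took its annotation of highest impact. Fractions are variant reads over reads of both alleles. Sets of sites of the same animal were paired, per the labels, and compared with the exact two-sided sign-flip test. The low-fraction marrow-only sites were set against low-fraction ear-only sites, or against other coding sites of the same marrow list. The p-values were adjusted (Benjamini-Hochberg) over 16 comparisons, 6 of them added after the data were seen. The Fisher step, run on simulated strand counts, recovered 88.5, 88.0 and 93.5% of 200 shifted sites with many variant reads in the marrow lists of animals 54 (6788 sites), 108 (10380 sites) and 136 (2645 sites). Intervals are Clopper-Pearson at 95%. Python 3.11.15 and SciPy 1.17.1 were used. Named sites were the 10 HIGH sites, 20 listed-gene protein-altering sites and 10 Strelka sites with the most variant reads, the VarScan2 sites, the genes with the most sites, and the 5 highest and 5 lowest fractions, without chromosome 18. Sites in 2 animals, strand-called sites and those shown by sequence were named after their values were seen. The sites, gene lists and tests were chosen with earlier results of these data known. Alternatives changed the fraction limit, depth, variant reads, mapping quality, strands, neighbours, the ears used and the animals.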

Additional observations from a re-analysis of the deposited data

How the results depend on the processing

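Of 230 alternatives, 194 kept the direction of a difference or left a count within 1.5 times, 24 turned a direction and 12 moved a count by more. The higher C to A share than in sites of both tissues held in all 14 of its alternatives (11.5 to 30.4 points) and the higher protein-altering ratio in all 13 (1.76 to 2.43, log2). Without the pairing by animal (no replicate block) the differences are the same by construction, and the exact unpaired p for C to A against sites of both tissues (25.6 points) was 0.1, the smallest it can give. C to T against sites of both tissues became -3.11 (limit 15%), -0.66 (20 reads), -1.03 (50 reads), -1.46 (mapping quality 40) and -0.42 (isolated sites), and -0.77 to 2.69 leaving out an animal. C to T against ear became -4.04 (15%), -1.30 (20 reads), -14.5 (50 reads), -3.04 (5 variant reads) and -3.10 (both strands), and -3.91 to 5.21 leaving out an animal. T to C against ear became 1.62 (50 reads) and 0.365 (5 variant reads), and -2.95 to 1.14 leaving out an animal. Equal strands against ear became 0 (10%), -0.17 (5 variant reads) and -1.15 (both strands), and -5.28 to 14.6 leaving out an animal. C to A against ear ran from -1.44 to 7.57 and its forward share from -6.88 to 1.91 leaving out an animal. C to A against marrow-only sites at 20% or above was -0.90 at 10%. The limit of 10%, with 18 sites, also gave C to T 22.8 against sites of both tissues and 27.5 against ear, T to C -28.8 against ear, and equal strands 96.6 against sites of both tissues and 92.1 against marrow-only sites at 20% or above; at 50 reads the C to A forward share against ear was -11.6. The protein-altering ratio against ear was -0.0520 (log2) at 5 variant reads. The Strelka overlap fell to 15 (10%), 68 (50 reads) and 120 (5 variant reads) as fewer sites entered. Strand calls were 2 (15%), 0 (10%), 14 (50 reads), 15 (mapping quality 40) and 15 (absent from all ears), and sites in more than 1 animal 0 (15%), 0 (10%), 5 (50 reads) and 7 (absent from all ears). The other causes were not tested. The planned filter on variant quality was not run, as the lists analysed here carry no such column. Depth limits all single-site fractions, whose median rests on 3 variant reads.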

Other observations

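Sites on the X chromosome made up 9.75% of the low-fraction marrow-only sites of animal 54, 6.07% in animal 108 and 3.27% in animal 136. Low-fraction ear-only sites had 8.18, 8.26 and 5.45% there. Coding sites of both tissues had 0.136, 0.141 and 1.11%.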
